A study of Homo sapiens with 6 samples.

Results

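The genes described here are 10 core components of the Polycomb repressive complexes, EZH1, EZH2, SUZ12, EED, BMI1, RING1, RNF2, CBX2, CBX7 and CBX8. They were taken by symbol, on reference chromosomes, from 63152 genes counted in A549 cells, a line derived from a human lung adenocarcinoma. The siRPS19 cells received a siGENOME SMARTpool of siRNAs against RPS19, a gene for a protein of the small ribosomal subunit, and the siOTP cells received the ON-TARGETplus non-targeting siRNA. Both siRNAs were used at 10 nM and RNA was taken at 72 hours, with 3 biological replicates per group. The 2 reagents come from different product lines, so the kind of reagent differs along with the target and the effects cannot be told apart. All 10 genes passed the filter on low counts.

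Polycomb proteins keep developmental genes silent through modified histones. Polycomb repressive complex 2 (PRC2) methylates histone H3 on the lysine known as K27, with EZH2 or its paralogue EZH1 as the catalytic subunit and SUZ12 and EED as obligate partners. PRC1 attaches ubiquitin to histone H2A through the RING finger ligases RING1 and RNF2, held by a PCGF protein such as BMI1. In canonical PRC1 a CBX protein such as CBX2, CBX7 or CBX8 reads the methyl mark. EZH2 is known as a gene of dividing cells that E2F factors activate, whereas EZH1 is known to be expressed in resting cells as well.

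The libraries held 20814110 to 23889372 counts on genes. RPS19 had 44.6, 36.0 and 44.4 CPM (counts divided by the TMM-scaled library total and put on the usual CPM base) in siRPS19 replicates 1 to 3, against 1474, 1374 and 1567 CPM in siOTP. Reads outside genes took 5.13% to 6.36% of entries in siRPS19 and 3.39% to 3.85% in siOTP, and the part of this difference in the results below was not tested. The epithelial markers KRT7, KRT8, KRT18, KRT19, CDH1 and EPCAM were all detected, EPCAM at only 3.36 ± 0.233 CPM in siRPS19 and 4.98 ± 0.437 CPM in siOTP. Here and below, ± after a level, share or ratio is the SD over n = 3 libraries of a group, and SE is named where it is meant. The 6 summed to 3394 to 3786 CPM in siRPS19 and 5222 to 5647 CPM in siOTP. Of 9 matched markers of leukocytes, endothelium and fibroblasts, COL1A1 and PDGFRB passed the filter and CD3E had no count in any library. Those 9 summed to 14.9 to 20.6 CPM in siRPS19 and 32.4 to 40.1 CPM in siOTP, mostly COL1A1.

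Between the groups, EZH2, CBX2 and SUZ12 fell by more than 2-fold, and the other 7 genes differed by at most 1.42-fold. In edgeR's quasi-likelihood test at an adjusted p of 0.05, 6 of the 10 genes were lower in siRPS19 (EZH2, CBX2, SUZ12, BMI1, CBX8 and EED), 3 were higher (CBX7, EZH1 and RING1) and RNF2 did not pass. Most tested genes differed between these groups: 38.9% of 17171 were called lower, 39.5% higher and 78.3% in either direction. For a fall of at least 2-fold the share was 12.4%, against 3 of the 10 genes here. For 8 of the 10, no siRPS19 library fell within the siOTP range, with 6 lower and 2 higher. Among all tested genes this held for 79.7%, with 39.6% lower and 40.1% higher. The median log2 fold change of the 10 was -0.34, beside 0.02 for all tested genes. In bulk RNA, fewer cells that express a gene and less RNA per cell cannot be told apart.

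**Figure D1:**
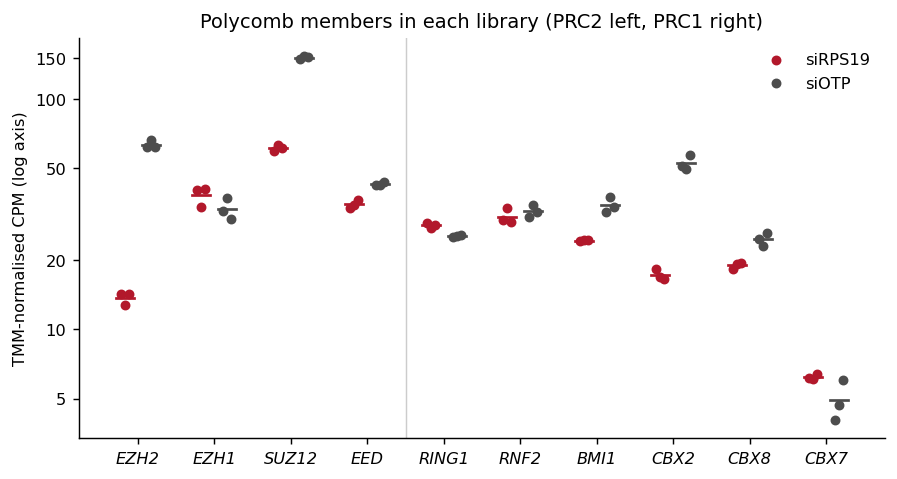
TMM-normalised CPM (vertical log axis) of the 10 Polycomb genes in each library, siRPS19 left of siOTP for each gene; points are libraries and bars are group means of 3. EZH2, SUZ12 and CBX2 show the widest gaps, with 12.7 to 14.2 CPM in siRPS19 and 61.7 to 66.1 CPM in siOTP for EZH2, while the points of EZH1 and RNF2 overlap between groups.

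The 2 catalytic subunits of PRC2 moved apart. EZH2 (ENSG00000106462, chromosome 7, 148504475 to 148581413, hg19) had 14.2, 12.7 and 14.2 CPM in siRPS19 against 62.1, 66.1 and 61.7 CPM in siOTP. Every siRPS19 library lay far below every siOTP library. The gene fell 4.60-fold, with a log2 fold change of -2.20 ± 0.06 (SE) and adjusted p = 6.69e-18 in edgeR. Only 2.70% of tested genes had a lower or equal log2 fold change. The fall was present in each pair of same-numbered libraries, at -2.13, -2.37 and -2.12 on the log2 scale.

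EZH1 (ENSG00000108799, chromosome 17, 40852293 to 40897071, hg19) had 40.4, 33.9 and 40.7 CPM in siRPS19 and 32.7, 37.0 and 30.2 CPM in siOTP. The groups overlapped, since siRPS19 replicate 2 lay below siOTP replicate 2. Its log2 fold change of 0.20 ± 0.08 (SE) passed with adjusted p = 0.0339 in edgeR, and it was higher in 2 of 3 pairs. With the replicate number as a block the call was lost, at adjusted p = 0.103 in edgeR. It was also lost without siOTP replicate 1 (adjusted p = 0.131), siOTP replicate 3 (0.167), siRPS19 replicate 1 (0.0782) or siRPS19 replicate 3 (0.0746) in edgeR.

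On the RPKM scale, which divides by the deposited transcript length, the order of the 2 paralogues turned round. That length was 4522 bases for EZH2, the same as its exonic bases in the GENCODE annotation. For EZH1 it was 6992 bases, against 6988 exonic bases there. Which transcripts were expressed was not tested, so orders, shares and sums of RPKM across genes rest on these lengths. EZH1 stood at 5.48 ± 0.546 RPKM and EZH2 at 3.04 ± 0.187 RPKM in siRPS19, against 4.76 ± 0.497 RPKM for EZH1 and 13.99 ± 0.533 RPKM for EZH2 in siOTP. EZH1 made up 64.8%, 63.2% and 64.9% of the RPKM of the pair in the siRPS19 libraries and 25.4%, 26.6% and 24.0% in the siOTP libraries. The log2 ratio of EZH1 to EZH2 was 0.85 ± 0.06 in siRPS19 and -1.56 ± 0.10 in siOTP, which is 2.41 apart. The exact two-sided permutation test gave p = 0.1, the smallest possible with 3 against 3, and 0.1 adjusted over the 5 ratios computed. This ratio does not depend on how the libraries are scaled. The pair together summed to 8.52 ± 0.733 RPKM in siRPS19 and 18.8 ± 1.02 RPKM in siOTP.

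The scaffold and reader subunits of PRC2 were both lower, by very different amounts. SUZ12 (ENSG00000178691, chromosome 17, 30264037 to 30328064, hg19), which holds the complex together, had 59.4, 63.1 and 61.5 CPM in siRPS19 and 149, 153 and 152 CPM in siOTP. Replicates were tight and the groups far apart. It fell 2.47-fold, with a log2 fold change of -1.30 ± 0.04 (SE) and adjusted p = 7.02e-17 in edgeR. Its partial copy SUZ12P, on the same chromosome, had 213 to 290 counts in siRPS19 and 302 to 323 in siOTP, against 1456 to 1544 and 2938 to 3101 counts for SUZ12. How reads shared by the copies were divided is not given in the sources used here.

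EED (ENSG00000074266, chromosome 11, 85955586 to 85989855, hg19), whose product binds the methylated histone tail, had 33.5, 34.7 and 36.3 CPM in siRPS19 and 42.1, 42.3 and 43.6 CPM in siOTP. The groups did not overlap. Its fall was small, with a log2 fold change of -0.29 ± 0.05 (SE) and adjusted p = 3.82e-05 in edgeR. When plain library totals replaced TMM, the log2 fold change was -0.01 (adjusted p = 0.911 in edgeR). Summed over EZH1, EZH2, SUZ12 and EED, PRC2 mRNA stood at 22.8 ± 0.637 RPKM in siRPS19 and 47.9 ± 1.24 RPKM in siOTP.

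The promoters of the catalytic pair and of SUZ12 are shown because EZH2 and SUZ12 had the largest falls of the 4 core PRC2 genes while EZH1 did not fall. They are RefSeq windows (GRCh38.p14) from 250 bases before to 50 after the annotated start, written 5′ to 3′ on the gene's strand. Capitals mark E2F words (TTTGGCGC, TTTGCCGC, TTTCGCGC or TTTCCCGC), the cell cycle homology word TTTGAA and the CCAAT box, each on either strand. EZH2 is at chr7:148884242-148884541 (minus strand), SUZ12 at chr17:31936757-31937056 (plus strand) and EZH1 at chr17:42744991-42745290 (minus strand).
EZH2: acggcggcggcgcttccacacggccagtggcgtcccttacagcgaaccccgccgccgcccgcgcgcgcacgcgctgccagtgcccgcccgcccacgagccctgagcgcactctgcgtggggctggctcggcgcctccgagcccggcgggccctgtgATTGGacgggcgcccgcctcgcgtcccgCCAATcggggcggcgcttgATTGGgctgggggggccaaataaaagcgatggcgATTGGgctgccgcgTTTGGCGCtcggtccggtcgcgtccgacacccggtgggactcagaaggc
SUZ12: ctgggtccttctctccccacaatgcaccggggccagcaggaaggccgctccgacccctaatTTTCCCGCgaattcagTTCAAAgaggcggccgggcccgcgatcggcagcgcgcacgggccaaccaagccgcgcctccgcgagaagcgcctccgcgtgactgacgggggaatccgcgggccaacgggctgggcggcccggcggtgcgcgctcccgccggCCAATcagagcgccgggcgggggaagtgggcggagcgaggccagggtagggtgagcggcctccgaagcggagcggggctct
EZH1: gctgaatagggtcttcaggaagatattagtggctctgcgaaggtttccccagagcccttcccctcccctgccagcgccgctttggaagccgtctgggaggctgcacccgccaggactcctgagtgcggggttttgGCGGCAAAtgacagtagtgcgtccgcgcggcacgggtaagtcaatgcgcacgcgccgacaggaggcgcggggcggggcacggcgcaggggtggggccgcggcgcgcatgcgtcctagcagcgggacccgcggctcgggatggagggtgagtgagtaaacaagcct
The EZH2 window holds 1 E2F word at the start and 4 CCAAT boxes, and the SUZ12 window holds 1 E2F word, 1 TTTGAA word and 1 CCAAT box. The EZH1 window holds 1 E2F word and neither of the others. No matches overlap one another. Among 35116 windows of this length, 3.31% hold an E2F word, 15.2% the TTTGAA word and 34.6% a CCAAT box. These shares are not matched for base composition. The median GC content of all windows is 58.67%, against 74.67% for this EZH2 window, 73.0% for SUZ12 and 67.0% for EZH1. The table matched 8 of the 10 genes, all but CBX2 and CBX8. Neither an E2F word nor the TTTGAA word stood in the windows of EED, BMI1, RING1, RNF2 and CBX7, nor in a further window of EZH2. A CCAAT box stood in the windows of EED, which fell 1.23-fold, and CBX7, which was called higher. The windows of BMI1, RING1 and RNF2 and the further window of EZH2 held no CCAAT box.

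Among the PRC1 genes, the ubiquitin ligases changed little. RING1 (ENSG00000204227, chromosome 6, 33176272 to 33180499, hg19) had 28.9, 27.6 and 28.4 CPM in siRPS19 and 25.0, 25.3 and 25.6 CPM in siOTP. The groups did not overlap, yet the rise was only 1.12-fold (log2 fold change 0.16 ± 0.06 SE, adjusted p = 0.0155 in edgeR). Its call was lost with DESeq2 (adjusted p = 0.0611), without a filter on low counts (0.188 in edgeR), and without siOTP replicate 1 (0.0862 in edgeR) or siOTP replicate 2 (0.0576 in edgeR). RNF2 (ENSG00000121481, chromosome 1, 185014496 to 185071740, hg19), the other ligase, had 29.7, 33.5 and 29.2 CPM in siRPS19 and 30.6, 34.5 and 32.3 CPM in siOTP. These groups overlapped, with a log2 fold change of -0.08 ± 0.06 (SE) and adjusted p = 0.279 in edgeR. RNF2 turned to 0.21 with library totals (adjusted p = 0.00576 in edgeR) and to 0.10 with upper-quartile factors (adjusted p = 0.181 in edgeR).

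The ligase pair kept its order. RING1 made up 68.5%, 64.9% and 68.5% of the RPKM of the pair in siRPS19 and 64.7%, 62.1% and 64.0% in siOTP. The log2 ratio of RING1 to RNF2 was 1.04 ± 0.14 in siRPS19 and 0.80 ± 0.08 in siOTP, 0.24 apart. By exact permutation (two-sided) p was 0.1, or 0.1 adjusted over the 5 ratios.

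BMI1 (ENSG00000168283, chromosome 10, 22610140 to 22620413, hg19), the PCGF subunit best known for silencing the CDKN2A locus, had 24.2, 24.3 and 24.3 CPM in siRPS19 and 32.2, 37.3 and 34.0 CPM in siOTP. It fell 1.42-fold (log2 fold change -0.51 ± 0.06 SE, adjusted p = 2.81e-07 in edgeR) and was lower in all 3 pairs. The readthrough gene COMMD3-BMI1 covers part of it and had no count in any library. In GENCODE release 29, 1000 of the 4283 exonic bases of BMI1 are shared with COMMD3-BMI1. How reads in those bases were counted is unknown here, so the level of BMI1 is uncertain.

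The CBX readers moved in opposite directions. CBX2 (ENSG00000173894, chromosome 17, 77751931 to 77761782, hg19) had 18.2, 16.8 and 16.5 CPM in siRPS19 and 50.9, 49.7 and 56.9 CPM in siOTP. No library of one group came near the other group. It fell 3.05-fold, with a log2 fold change of -1.61 ± 0.06 (SE) and adjusted p = 4.28e-15 in edgeR, and 4.88% of tested genes had a lower or equal value. CBX8 (ENSG00000141570, chromosome 17, 77765931 to 77775482, hg19), its neighbour in the genome, had 18.2, 19.2 and 19.4 CPM in siRPS19 and 24.7, 23.05 and 26.1 CPM in siOTP. It fell 1.30-fold (log2 fold change -0.38 ± 0.07 SE, adjusted p = 3.66e-05 in edgeR). With library totals the log2 fold change of CBX8 was -0.09 (adjusted p = 0.222 in edgeR).

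CBX7 (ENSG00000100307, chromosome 22, 39516172 to 39548679, hg19) was the least abundant of the 10, with 140 to 159 counts in siRPS19 and 84 to 117 in siOTP. Its level was 6.12, 6.07 and 6.41 CPM in siRPS19 and 4.03, 4.71 and 6.03 CPM in siOTP. The groups were separated only narrowly, because siOTP replicate 3 lay just below the lowest siRPS19 library. In edgeR its log2 fold change was 0.34 ± 0.14 (SE), a 1.26-fold rise with adjusted p = 0.0309. The call was lost without siOTP replicate 1 (0.19, adjusted p = 0.245 in edgeR), siOTP replicate 2 (adjusted p = 0.0993) or siRPS19 replicate 3 (0.065). DESeq2 and the fit without a filter each gave adjusted p = 0.0697.

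The balance between the 3 readers differed between the groups. The log2 ratio of CBX7 to CBX2 differed by 1.96, that of CBX8 to CBX2 by 1.23 and that of CBX7 to CBX8 by 0.73, siRPS19 minus siOTP. Each difference exceeded the SD of either group, and each had an exact two-sided permutation p = 0.1, or 0.1 adjusted over the 5 ratios. CBX8 was the more abundant of CBX8 and CBX2 in siRPS19, at 4.55 ± 0.156 against 3.02 ± 0.165 RPKM, and the less abundant in siOTP, at 5.91 ± 0.367 against 9.23 ± 0.682 RPKM.

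**Figure D2:**
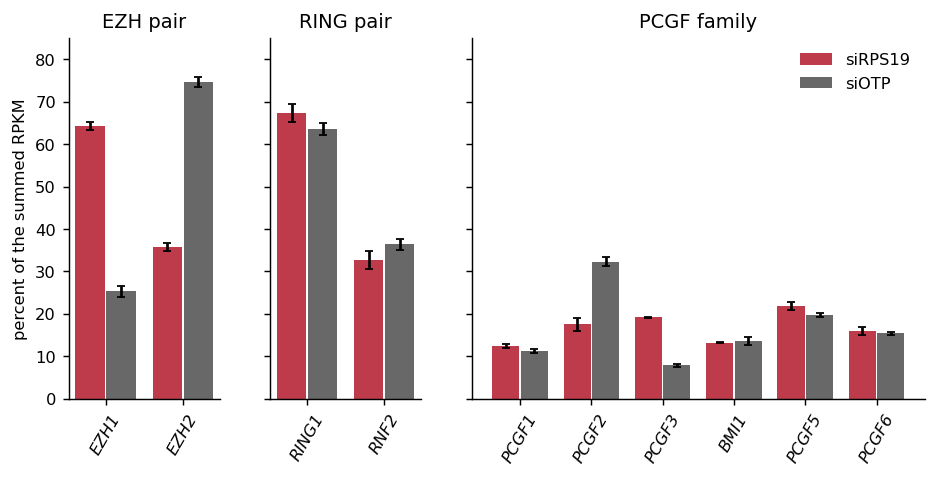
Share of each gene in the summed RPKM of its family (vertical axis, percent) for the EZH pair, the RING pair and the PCGF family, siRPS19 left of siOTP; bars are means and error bars SD of 3 libraries. EZH1 holds 64.3% of its pair in siRPS19 and 25.3% in siOTP, and PCGF3 19.2% of its family in siRPS19 and 7.83% in siOTP.

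The order of the 10 genes by RPKM differed between the groups. This order rests on the deposited lengths, and which transcripts were expressed was not tested, as stated for the EZH pair. In siRPS19 it ran RING1 (15.6 RPKM), SUZ12 (9.37), RNF2 (7.56), BMI1 (5.66), EZH1 (5.48), EED (4.96), CBX8 (4.55), EZH2 (3.04), CBX2 (3.02) and CBX7 (0.831). The libraries of BMI1 and EZH1, of EZH1 and EED, and of EZH2 and CBX2 overlapped there, so those neighbours did not differ beyond their spread. In siOTP it ran SUZ12 (23.1 RPKM), EZH2 (13.99), RING1 (13.9), CBX2 (9.23), BMI1 (8.05), RNF2 (7.98), EED (6.08), CBX8 (5.91), EZH1 (4.76) and CBX7 (0.66). There the overlapping neighbours were EZH2 and RING1, BMI1 and RNF2, and EED and CBX8. The 6 PRC1 genes summed to 37.2 ± 0.289 RPKM in siRPS19 and 45.8 ± 1.40 RPKM in siOTP. That difference of -8.57 RPKM, siRPS19 minus siOTP, was -0.393 RPKM with library totals.

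The scale on which libraries are compared matters for the small changes. Plain library totals moved the median log2 fold change of all tested genes up by 0.29. On that scale EZH2 was at -1.92, CBX2 at -1.33 and SUZ12 at -1.02, all 3 still past the test, and CBX7 was at 0.62, EZH1 at 0.49 and RING1 at 0.45. BMI1 stood at -0.22 (adjusted p = 0.00289 in edgeR). Counted this way, 4 of the 10 were higher and 4 lower, beside 53.1% higher and 27.6% lower of all tested genes, whose median was 0.31.

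**Figure D3:**
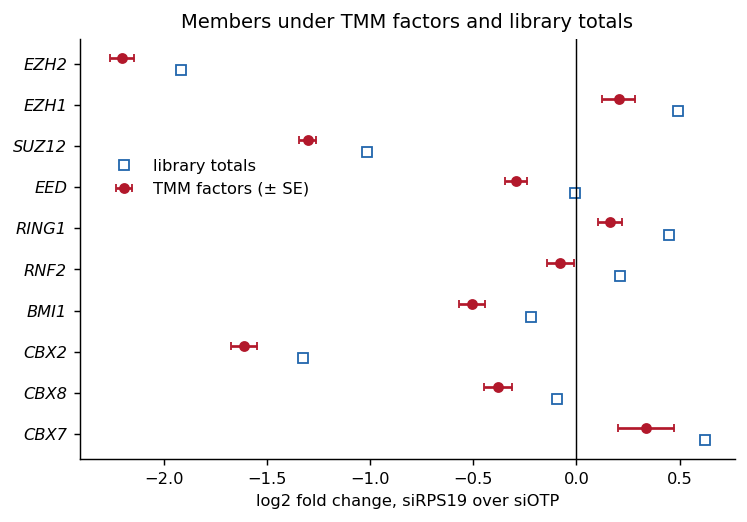
Log2 fold change of each gene, siRPS19 over siOTP (horizontal axis), with TMM factors (filled circles with SE from edgeR) and with library totals (open squares). EZH2, CBX2, SUZ12 and BMI1 stay below 0 on both scales, CBX7, EZH1 and RING1 stay above, and RNF2 changes side.

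By distance between mean-centred log2 CPM profiles over the 6 libraries, among 11490 genes with a mean of at least 5 CPM, the 3 genes nearest to EZH2 were DKC1 (distance 0.0713), CEP85 (0.0949) and CCSAP (0.0994). Their log2 fold changes were -2.23, -2.21 and -2.21. The nearest to CBX7, which had the highest log2 fold change of the 10, were TMEM37 (0.161), HDDC3 (0.179) and the noncoding gene RP11-51L5.5 (0.225), at 0.41, 0.43 and 0.43. All of these profiles carry the difference between the groups, so likeness includes it.

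Other subunits of PRC2 were split. Of 9 tested, 5 fell and 3 rose, and AEBP2 did not pass (-0.10, and 0.19 with library totals). The median log2 fold change was -0.55, beside 0.02 for all tested genes (38.9% lower and 39.5% higher). PHF19, a Polycomb-like protein that recruits PRC2 to methylated histones, had a log2 fold change of -2.70 and reached 18.5 ± 0.413 CPM in siRPS19 against 120.4 ± 1.94 CPM in siOTP (adjusted p = 4.96e-21 in edgeR). The histone-binding subunit genes RBBP4 and RBBP7, which also serve other chromatin complexes, fell 3.59-fold and 1.84-fold, and the elongin-binding factor EPOP (C17orf96 in the files) fell 2.23-fold. MTF2, another Polycomb-like gene, fell 1.46-fold. By contrast LCOR, whose locus encodes a PRC2 accessory protein among other products, rose 2.22-fold, JARID2, a PRC2 recruiter, 1.52-fold, and PHF1, the remaining Polycomb-like gene, 1.40-fold. EZHIP had 1 count over the 6 libraries and was not tested.

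In canonical PRC1, of 8 partners analysed 5 fell, 2 rose and PHC2 did not pass (0.03). Their median log2 fold change was -0.45, beside 0.02 for all tested genes (38.9% lower and 39.5% higher). PCGF2, the closest relative of BMI1, fell 2.54-fold (26.4 ± 2.63 CPM in siRPS19 and 67.4 ± 2.48 CPM in siOTP). CBX6, a further reader, fell 1.46-fold. PHC1, a polyhomeotic subunit, rose 2.27-fold and SCML1 2.62-fold. PHC1 had 80.2 ± 0.766 CPM in siRPS19 and 35.3 ± 1.45 CPM in siOTP.

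For variant PRC1, which lacks a CBX reader of the methyl mark, 20 of 27 partners fell, 5 rose and 2 did not pass. Their median was -0.35, beside 0.02 for all tested genes (38.9% lower and 39.5% higher). With library totals 10 fell and 8 rose, where 27.6% of all tested genes were lower and 53.1% higher, and E2F6 and SKP1 changed sign. CBX3, a heterochromatin protein, fell 2.50-fold, WDR5, which also serves methyltransferases of H3K4, 2.47-fold and TFDP1, the dimer partner of E2F factors, 1.88-fold. RYBP, a subunit that stimulates the ligase, fell 1.39-fold and KDM2B, which brings the complex to CpG islands, 1.23-fold. Upward, AUTS2 rose 2.06-fold, PCGF3 1.77-fold and DCAF7 1.47-fold. PCGF3 took 19.2% ± 0.103 of the RPKM of the PCGF family in siRPS19 and 7.83% ± 0.370 in siOTP, while PCGF2 took 17.5% ± 1.52 in siRPS19 and 32.3% ± 1.04 in siOTP. BMI1 held 13.2% ± 0.190 in siRPS19 and 13.6% ± 0.915 in siOTP.

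The enzymes that remove the Polycomb marks also differed. Of 13 tested genes for H2A deubiquitinases and their partners, 8 fell and 3 rose. Their median was -0.49, beside 0.02 for all tested genes (38.9% lower and 39.5% higher). With library totals, 8 fell and 5 rose, beside 27.6% lower and 53.1% higher of all tested genes. BAP1, the catalytic subunit, fell 1.98-fold, and its activators ASXL1 and ASXL2 fell 1.82-fold and 2.63-fold. MBD5 and MBD6, which bind the BAP1 complex, rose by 1.14 and 0.59 on the log2 scale. USP16, an H2A deubiquitinase outside that complex, fell 1.74-fold. Of the 2 demethylases of H3K27, KDM6B rose 2.78-fold, to 68.8 ± 1.13 CPM in siRPS19 against 24.8 ± 3.34 CPM in siOTP (adjusted p = 1.25e-12 in edgeR). KDM6A stood at 33.1 CPM in siRPS19 and 32.8 CPM in siOTP, overlapping between groups, with adjusted p = 0.821 in edgeR. Both were higher with library totals and with upper-quartile factors, where 53.1% and 47.7% of all tested genes were higher.

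**Figure D4:**
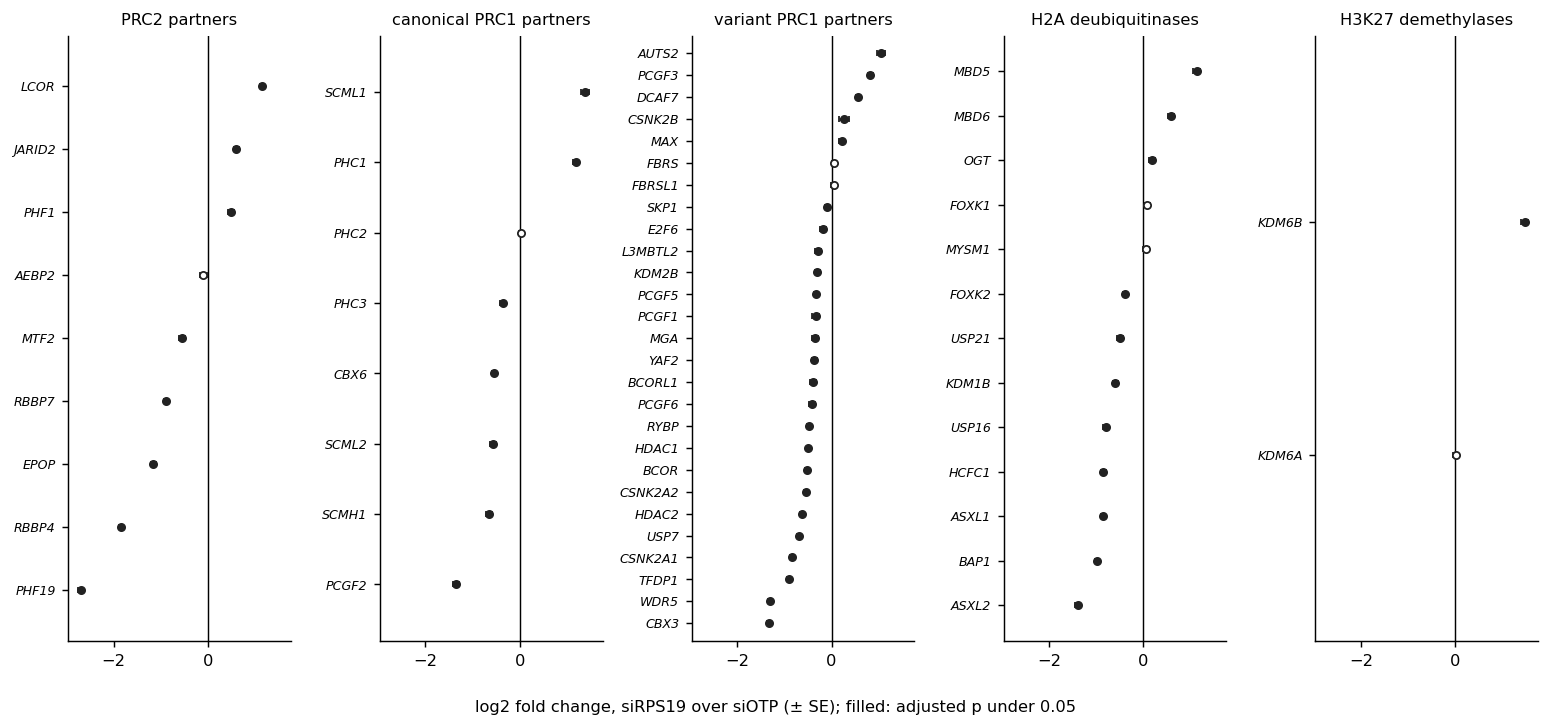
Log2 fold change with SE from edgeR, siRPS19 over siOTP (horizontal axis), for tested partners of PRC2, canonical and variant PRC1, the H2A deubiquitinases and the H3K27 demethylases; filled points have an adjusted p under 0.05. Of the 57 genes in the first 4 panels, 38 fell, 13 rose and 6 did not pass, where 38.9% of all tested genes fell and 39.5% rose. With library totals these panels had, in order, 5, 4, 10 and 8 genes lower and 4, 3, 8 and 5 higher. On that scale 27.6% of all tested genes were lower and 53.1% higher.

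For comparison, the complexes that methylate H3K4, which oppose Polycomb, gave 10 genes lower and 2 higher of 15 tested. Their median was -0.19, beside 0.02 for all tested genes (38.9% lower and 39.5% higher). With library totals 5 were lower and 5 higher, with a median of 0.09 beside 0.31 for all tested genes (27.6% lower and 53.1% higher), and ASH2L, CXXC1 and ASH1L changed sign. ASH1L is counted in this list although it is known mainly for methylating another lysine of H3. PSIP1 and PAXIP1 fell 2.44-fold and 2.16-fold, RBBP5 1.66-fold and WDR82 1.37-fold, while SETD1B and KMT2C rose 1.14-fold and 1.15-fold.

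The HOX genes, the classical targets of Polycomb, moved both ways. Of 38 analysed, 29 passed the filter, and of these 12 rose, 6 fell and 11 did not pass, with a median of 0.32 beside 0.02 for all tested genes. Of all tested genes 39.5% rose and 38.9% fell. With library totals 21 rose and 3 fell, with a median of 0.61, and 4 genes changed sign, beside 53.1% higher, 27.6% lower and a median of 0.31 for all tested genes. HOXC13 rose 7.96-fold and stood at 57.9 ± 5.88 CPM in siRPS19 and 7.29 ± 1.51 CPM in siOTP (adjusted p = 6.74e-09 in edgeR). HOXC10 rose 3.67-fold, HOXB13 2.74-fold and HOXA13 2.04-fold. In the other direction HOXA2 fell 2.81-fold, HOXC8 1.99-fold, HOXA3 1.99-fold and HOXB9 1.22-fold. HOXA2 was low in both groups, at 1.07 ± 0.223 CPM in siRPS19 and 3.00 ± 0.128 CPM in siOTP. The fall of HOXB9 did not pass with library totals (adjusted p = 0.958 in edgeR). The group 13 genes, singled out after their values were seen, were all higher in clusters A, B and C, whereas HOXD13 had 7 to 8 counts in siRPS19 and 7 to 11 in siOTP and was not tested. In the HOXD cluster 4 of 9 genes were tested and all 4 rose. Of the tested genes 3 of 8 rose in HOXA, 3 of 9 in HOXB and 2 of 8 in HOXC.

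**Figure D5:**
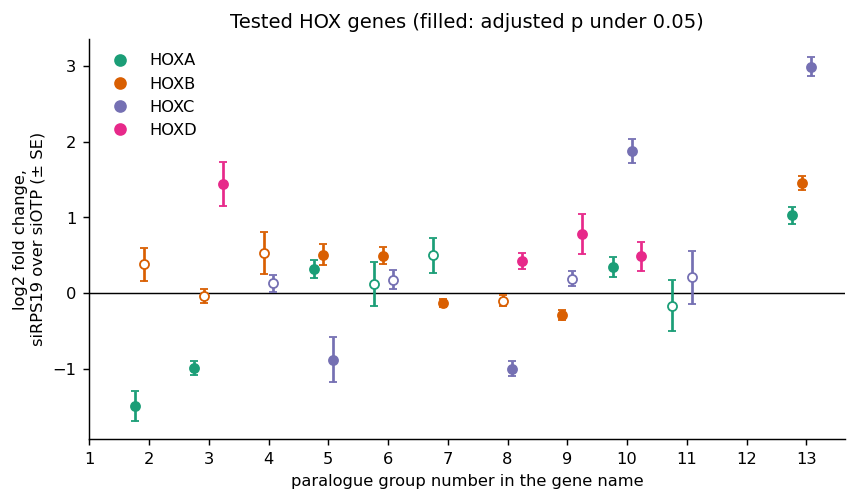
Log2 fold change with SE from edgeR, siRPS19 over siOTP (vertical axis), of 29 tested HOX genes against the paralogue group number in the gene name, coloured by cluster; filled points have an adjusted p under 0.05. HOXC13 is highest at 2.99 and HOXA2 lowest at -1.49.

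Among 20 tumour suppressors and other genes known from other systems as Polycomb targets, 16 were tested, 11 rose and 5 fell. Their median was 0.71, beside 0.02 for all tested genes (39.5% higher and 38.9% lower). CDKN1A, which encodes p21 and is itself a target of p53, rose 15.1-fold and FBXO32, a ubiquitin ligase subunit, 6.76-fold. DAB2IP, a RAS GTPase activator, rose 2.07-fold and the cadherin gene CDH1 1.63-fold. The transcription factor gene KLF2 fell 7.08-fold, RUNX3 2.76-fold, RASSF1 2.35-fold and RAP1GAP 2.04-fold. KLF2 was low in both groups, at 0.818 ± 0.314 CPM in siRPS19 and 5.84 ± 0.122 CPM in siOTP. With library totals 11 rose and 4 fell, beside 53.1% higher and 27.6% lower of all tested genes, and BMPR1B changed sign. CDKN2A, part of a locus known to be deleted in A549 cells, had 1 count over the 6 libraries, and CDKN2B had none. These values are mRNA levels, and histone marks were not analysed here.

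Reads of overlapping genes limit some of these values, since no label states a strand-specific kit. Genes with a mean of at least 10 counts overlap RBBP4, RBBP7, PHF1, AEBP2, PCGF2, PHC1, PCGF3, KDM2B, CBX3, SKP1, MBD5 and MBD6 among the partners named. The same holds for KMT2C, WDR82, PAXIP1, PSIP1 and ASH1L, and for HOXA2, HOXA3, HOXA13, HOXB9, HOXC8 and HOXC13. None of the 10 core genes has such a partner in the authors' table. In GENCODE release 29, 1612 of the 7461 exonic bases of CBX7 lie in AL031846.2 or COX5BP7, so its low level is uncertain too.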

How the data were processed

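RNA of A549 cells was sequenced as read pairs of 50 bases, per the labels. TopHat2 (2.0.8b), HTSeq, DESeq, R (3.0.2) and build hg19 are named in the submitters' processing notes. Counting mode, strand setting and annotation release were not given in the sources used here. For every library the authors deposited raw counts by Ensembl gene, and for the series a table with 1 RPKM value per group, gene coordinates and transcript lengths. Group tables that repeat the library counts were not used. The deposited RPKM was not used in any test. RPKM per library was computed here from the counts, the deposited transcript lengths and TMM factors.

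Reads outside genes and ambiguous reads (7.50% to 7.60% of entries in siRPS19 and 8.10% to 8.24% in siOTP) stayed out of library sizes. Genes were kept with filterByExpr (minimum count 10, minimum total 15), scaled with TMM and tested with edgeR 4.0.16 (robust glmQLFit, glmQLFTest) in R 4.3.3. P-values were adjusted by Benjamini-Hochberg over all 17171 genes tested, with a threshold of 0.05. Each SE was derived from this test, as the absolute log2 fold change divided by the square root of the F statistic. The script was tested on simulated data in which a small part of the genes changed, equally up and down. That test does not cover the choice of scaling in these data. Replicate pairs differed beyond counting noise (chi-square per degree of freedom 4.40 to 16.6). The sample descriptions in the labels give same-numbered libraries of both groups the same date, which pairs them, and the deviations of each pair from the group means correlated at 0.05, -0.10 and 0.05 across genes. The main fit had no block.

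The members and gene lists were chosen with earlier results of these data known. Of 162 list symbols, 160 matched a gene. Some genes of these groups are not reported here. Named in the text are all 10 core genes, any gene of the short partner lists, and in the H3K4, HOX and target lists up to 4 genes per direction with the smallest p and a mean of at least 1 CPM. Outside that rule, ASH2L, CXXC1, ASH1L and BMPR1B are named for a change of sign with library totals. HOXD13, CDKN2A and CDKN2B are named although they were not tested. As alternatives, DESeq2 1.42.0, limma-voom (limma 3.58.1), 3 other scalings, 2 other filters, the replicate block and leaving out each library in turn were run.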

Additional observations from a re-analysis of the deposited data

How the results depend on the processing

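The falls of EZH2, CBX2, SUZ12 and BMI1 passed the test under every alternative run, and those of EED and CBX8 under all but library totals. Of the 10 core genes, 1 was called higher with DESeq2 (EZH1) and 1 without a filter (EZH1), and 0 to 3 with single libraries left out, against 3 in the fit reported, while 6 were called lower with every library left out in turn. RNF2 turned to 0.21 with library totals and 0.10 with upper-quartile factors. With library totals, 8 variant PRC1 partners were higher and 10 lower, 5 H2A deubiquitinase genes, 2 H3K27 demethylases and 21 HOX genes were higher, 5 H3K4 genes were higher and 5 lower, and 3 HOX genes were lower. With upper-quartile factors, 5 H2A deubiquitinase genes and 2 H3K27 demethylases were higher. The summed RPKM of the PRC2 genes, siRPS19 minus siOTP, moved to -18.2 with library totals from -25.1. That of the PRC1 genes moved to -0.393 from -8.57. Only the scaling differed between these settings. With the replicate block, EZH1 lost its call (adjusted p = 0.103 in edgeR), and no other of the 10 core genes changed its call. The difference in the log2 ratio of EZH1 to EZH2 ran from 2.36 to 2.46 with single libraries left out, and was 2.41 within pairs (replicate block). CBX7 had 84 to 159 counts per library, the fewest of the 10 core genes.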
